A study of Mus musculus with 16 samples.

Results

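The genes described here are named as proteins of the mitochondrial ribosome. They were chosen by symbol, as the rows of the count table whose name begins with Mrpl or Mrps followed by a digit. Of 54132 rows, 78 qualified, 49 named Mrpl and 29 named Mrps. These names refer to the large and the small subunit, although not every member sits where its name says. A further 5 rows with a pseudogene ending (-ps) were left out. Expression was measured by RNA sequencing of heart ventricles from 8-week-old mice. In cKO animals both Rbpms alleles were floxed and Cre was expressed from the Myh6 promoter, a promoter of heart muscle cells. Controls had the same floxed alleles without Cre. Each genotype had 4 libraries, with 3 males and 1 female (replicate 3). No control carried Cre alone, so effects of Cre and of losing Rbpms cannot be told apart. The Rbpms protein binds RNA, and the comparison asks how ventricular transcript levels differ when heart muscle cells lack it. Newborn ventricles, also in the series, were not analysed here.

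Mitochondria keep their own ribosome, the mitoribosome, which translates the few proteins encoded by mitochondrial DNA, all of them core subunits of the respiratory chain and ATP synthase. Its RNAs come from mitochondrial DNA, whereas its proteins are encoded in the nucleus, made in the cytosol and imported. Many of these proteins descend from bacterial ribosomal proteins and others exist only in mitochondria. Heart muscle is among the tissues richest in mitochondria, and inherited defects of several mitoribosomal proteins cause cardiomyopathy in people.

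The libraries held 20190334 to 24540433 counts, and 16051 genes passed the filter on low counts. Levels are given as CPM, counts scaled to library size, with TMM factors that correct for differences in library composition. Rbpms itself measured 38.8, 34.5, 27.1 and 26.9 CPM in the cKO libraries, against 191, 154, 193 and 102 CPM in the control libraries. It was 5.02-fold lower in cKO ventricles (log2 fold change -2.33 ± 0.20 SE, edgeR adjusted p = 3.54e-05), and no library went against its label. Mitochondrially encoded genes took 8.92, 9.30, 8.04 and 9.28% of counts in cKO libraries 1 to 4, against 10.1, 9.16, 8.95 and 11.8% in control libraries 1 to 4. On the second principal component (18.4% of the variance) the female library of each genotype, replicate 3, lay at -33.24 in cKO and -40.31 in control, and the 6 male libraries at -1.08 to 19.42. Control replicate 4 stood apart on the third (12.8%). The test throughout was edgeR's quasi-likelihood test with Benjamini-Hochberg adjustment, a call meant an adjusted p under 0.05, and 19.3% of all tested genes were called.

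Mitochondrial ribosomal protein transcripts were lower in cKO ventricles. Of 77 members tested, 30 were called lower (39.0%) and 0 higher, beside 9.64% of all tested genes called in each direction. The median log2 fold change of the members was -0.25, with quartiles at -0.37 and -0.11, against 0.01 over all tested genes. A negative fold change was found for 67 members and a positive one for 10. The changes were modest, and the called members were 15.2% to 39.1% below control. At an unadjusted p under 0.05, 40 members were lower and 0 higher, and the share of all genes at that threshold was not taken. DESeq2 and limma-voom also called 0 members higher, beside 1702 and 1534 genes higher in the whole table. Expression in cKO libraries lay below every control library for 27 members, 23 of them called, and above every control library for 0, beside 11.8% of all tested genes in each direction. Mrpl and Mrps genes gave like shares, with 19 of 48 Mrpl genes and 11 of 29 Mrps genes lower and a median log2 fold change of -0.25 in each set.

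**Figure D1:**
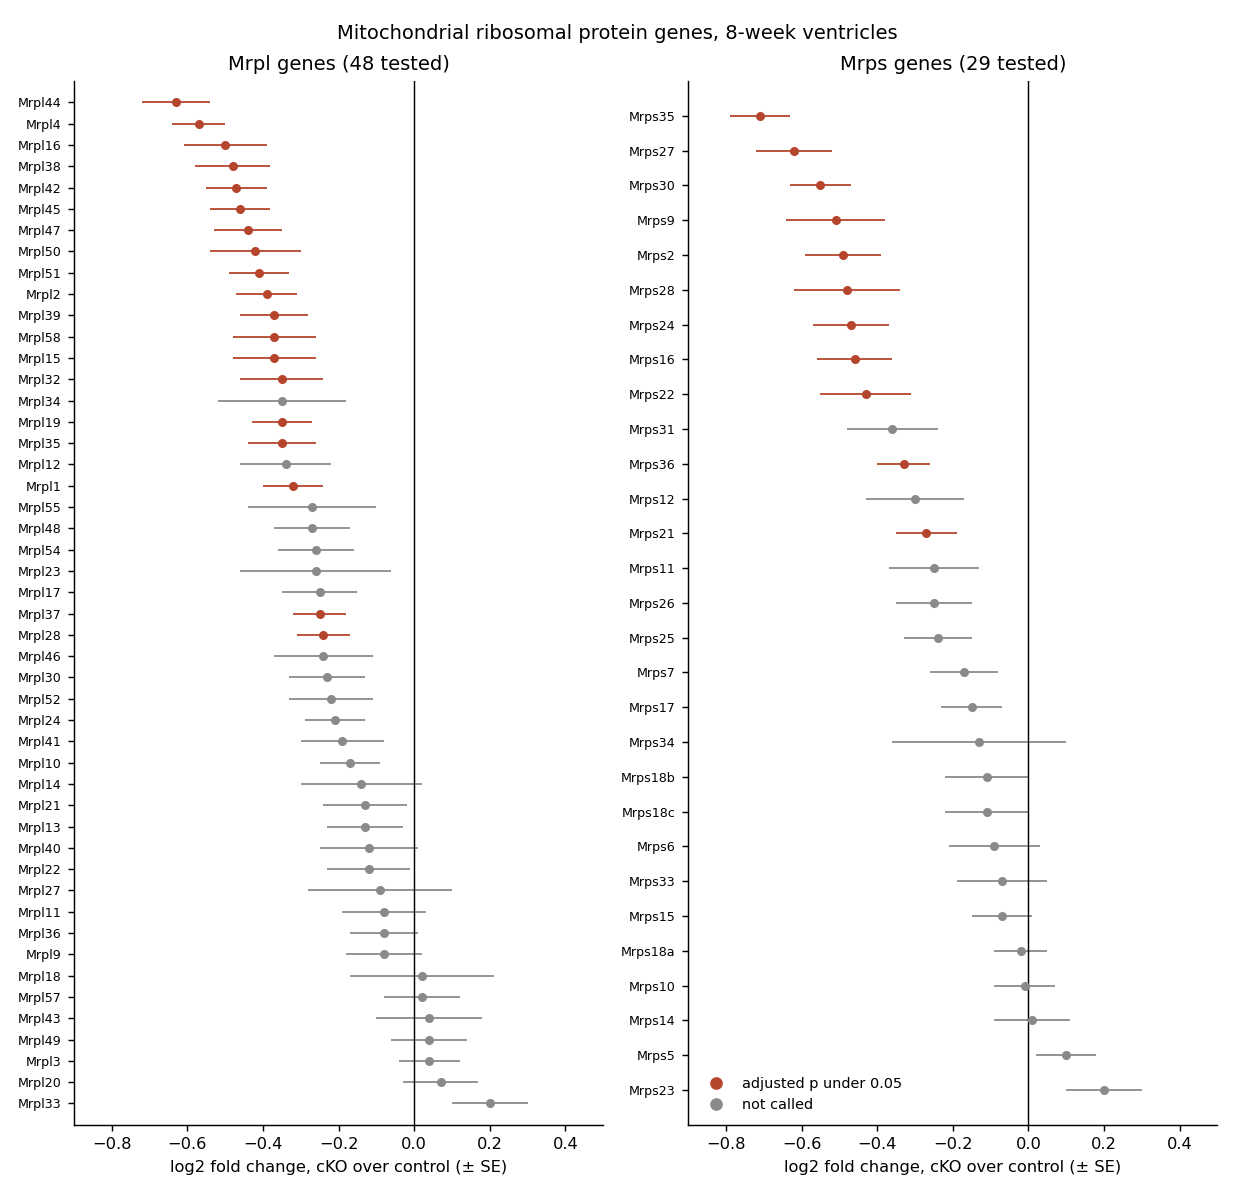
Log2 fold change of cKO over control (points, with bars for the standard error) for the 48 Mrpl and 29 Mrps genes tested, ordered by size. Red points mark the 30 genes called at an adjusted p under 0.05, all of which lie left of 0, while the 10 positive values are all among the grey points.

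The number of calls depended on scaling and on single libraries. With total counts alone as the scaling, the median over all genes shifted to 0.09 and that of the members to -0.16, and 16 members were called lower and 0 higher. That scaling called 1992 genes higher and 1021 lower in the whole table, against 1548 higher and 1547 lower with TMM. When each library was left out in turn, 20 of the 30 calls held in all 8 fits. All 30 were kept without control replicate 1, and 24, 23 and 23 without control replicates 2, 3 and 4. Without cKO replicates 1, 2, 3 and 4, 20, 21, 20 and 27 were kept. Calls over the whole table fell as well, from 1547 genes lower with all libraries. There were 1361, 1330, 1412 and 1418 without control replicates 1 to 4, and 1093, 1294, 1221 and 1298 without cKO replicates 1 to 4. Without cKO replicate 1, 12 Mrpl genes were lower. Without cKO replicate 4, 41 members had no overlap between genotypes. Groups separate more readily with fewer libraries, and the share of all genes without overlap was not taken for that fit. The 10 members that lost their call in at least 1 of these fits were Mrpl1, Mrpl15, Mrpl28, Mrpl32, Mrpl37, Mrpl50, Mrpl58, Mrps21, Mrps22 and Mrps28, with adjusted p-values of up to 0.124.

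Mrps35, a mitochondria-specific protein of the small subunit (chromosome 6, 147042764 to 147073991 in GRCm38), had the largest fall of the members tested. It measured 47.9, 49.4, 43.2 and 45.6 CPM in cKO libraries, against 70.6, 80.5, 81.0 and 73.4 CPM in control libraries. The groups lay far apart, and the fall was 39.1% (log2 fold change -0.71 ± 0.08 SE, edgeR adjusted p = 0.000124). Mrpl4, a homologue of bacterial L4 that lines the exit tunnel (chromosome 9, 21002738 to 21008839), measured 41.5, 40, 40 and 40.7 CPM in cKO libraries and 60.3, 58.6, 55.9 and 66.8 CPM in control libraries. The cKO libraries were nearly identical for Mrpl4 and all lay below the controls (log2 fold change -0.57 ± 0.07 SE, edgeR adjusted p = 0.000399). Mrpl44, a large-subunit protein with a ribonuclease III fold in which human variants cause cardiomyopathy (chromosome 1, 79776018 to 79781445), measured 32.2, 31.5, 27.8 and 36.4 CPM in cKO libraries and 45.1, 52.3, 48.8 and 51.6 CPM in control libraries. It was 35.3% lower without overlap (log2 fold change -0.63 ± 0.09 SE, edgeR adjusted p = 0.000798).

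Mrps30, which in spite of its name sits in the large subunit (chromosome 13, 118378381 to 118387252), measured 27.9, 29.2, 30.5 and 26.0 CPM in cKO libraries and 38.1, 41.4, 43.1 and 44.1 CPM in control libraries. It was lower by 0.55 ± 0.08 on the log2 scale (log2 fold change -0.55, edgeR adjusted p = 0.00081), again without overlap. Mrpl42, a mitochondria-specific protein of the large subunit (chromosome 10, 95480805 to 95501940), was among the members with the highest counts. It measured 142, 152, 137 and 163 CPM in cKO libraries and 198, 206, 207 and 214 CPM in control libraries (log2 fold change -0.47 ± 0.08 SE, edgeR adjusted p = 0.00128). Mrps27, a pentatricopeptide-repeat protein of the small subunit (chromosome 13, 99344786 to 99415562), measured 22.1, 23.8, 20.9 and 27.8 CPM in cKO libraries and 37.0, 33.9, 34.3 and 39.9 CPM in control libraries. Every cKO library was below every control library (log2 fold change -0.62 ± 0.10 SE, edgeR adjusted p = 0.00145). An antisense transcript overlaps 24.2% of the exon bases of Mrps27, and the strand setting of the counting is not given in the sources used here, so shared reads cannot be told apart.

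**Figure D2:**
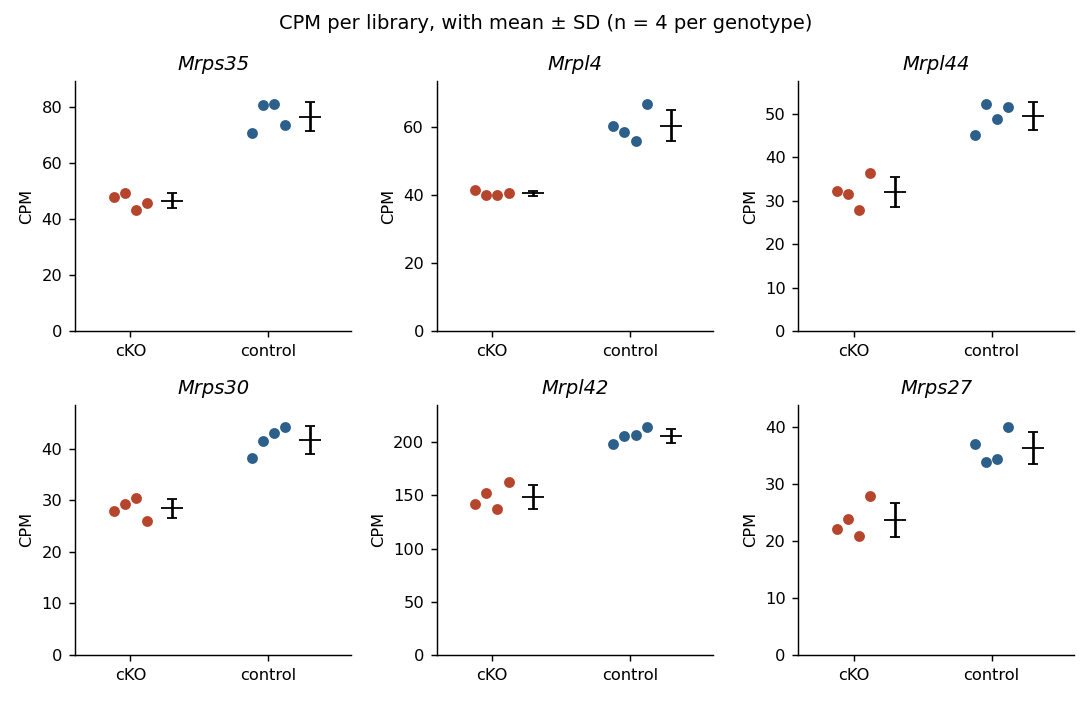
CPM in each library (points, cKO red and control blue) with mean ± SD (bars, n = 4 per genotype) for the 6 members with the smallest adjusted p. In each panel the cKO libraries lie below all control libraries, for example 137 to 163 against 198 to 214 CPM for Mrpl42.

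The next members in order of adjusted p were also free of overlap between genotypes. Mrpl51, a large-subunit protein found only in mitochondria, averaged 98.6 ± 4.71 CPM in cKO and 131 ± 8.82 CPM in control ventricles (SD, n = 4 each, log2 fold change -0.41, edgeR adjusted p = 0.00271). Mrpl45, which helps anchor the ribosome to the inner membrane, averaged 49.2 ± 4.58 CPM in cKO and 67.5 ± 3.87 CPM in control ventricles (log2 fold change -0.46, edgeR adjusted p = 0.00274). Mrpl47, a homologue of bacterial L29 at the tunnel exit, averaged 22.1 ± 1.51 CPM in cKO and 30 ± 2.18 CPM in control ventricles (log2 fold change -0.44, edgeR adjusted p = 0.00403). Exons of Actl6a and Ndufb5 on the other strand overlap 24.2% of Mrpl47. Mrpl2, the counterpart of bacterial L2 beside the peptidyl transferase centre, averaged 39.1 ± 2.26 CPM in cKO and 51.3 ± 4.11 CPM in control ventricles (log2 fold change -0.39, edgeR adjusted p = 0.00589).

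Small-subunit homologues of bacterial proteins were also among the falls. Mrps2, the S2 homologue, averaged 32.1 ± 3.28 CPM in cKO and 45.2 ± 5.31 CPM in control ventricles (log2 fold change -0.49, edgeR adjusted p = 0.00603). Mrps24, related to bacterial S3, averaged 25.7 ± 1.29 CPM in cKO and 35.5 ± 4.86 CPM in control ventricles (log2 fold change -0.47, edgeR adjusted p = 0.00695). Exons of Urgcp on the same strand cover 15.4% of Mrps24. Mrps16, the S16 homologue, averaged 20.3 ± 0.681 CPM in cKO and 28.0 ± 3.61 CPM in control ventricles (log2 fold change -0.46, edgeR adjusted p = 0.00765). In the large subunit, Mrpl16, the L16 homologue, averaged 41.6 ± 2.89 CPM in cKO and 58.8 ± 8.69 CPM in control ventricles (log2 fold change -0.50, edgeR adjusted p = 0.00624). Mrpl38, a mitochondria-specific protein of the central protuberance, averaged 30.1 ± 2.09 CPM in cKO and 42.1 ± 5.78 CPM in control ventricles (log2 fold change -0.48, edgeR adjusted p = 0.00645). No genotype overlap was seen for any of these 5 genes.

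Mrps36 and Mrpl12 are both tied to roles outside the ribosome. Mrps36 is now counted as a subunit of the 2-oxoglutarate dehydrogenase complex, and is a member here by its symbol alone. It measured 33.6, 32.4, 35.2 and 33.8 CPM in cKO libraries and 39.1, 44.7, 41.9 and 44.3 CPM in control libraries, and it was lower without overlap (log2 fold change -0.33 ± 0.07 SE, edgeR adjusted p = 0.00904). Mrpl12, a stalk protein reported to bind the mitochondrial RNA polymerase, measured 48.3, 47.8, 45.6 and 58.0 CPM in cKO libraries and 50.8, 65.7, 61.9 and 74.5 CPM in control libraries. Its groups overlapped through cKO replicate 4, and it missed the threshold (log2 fold change -0.34 ± 0.12 SE, edgeR adjusted p = 0.0635).

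The other 14 called members had log2 fold changes of -0.51 to -0.24 and edgeR adjusted p-values of 0.0118 to 0.045. They were, in the large subunit, Mrpl1, Mrpl15, Mrpl19, Mrpl28, Mrpl32, Mrpl35, Mrpl37, Mrpl39, Mrpl50 and Mrpl58, and, in the small subunit, Mrps9, Mrps21, Mrps22 and Mrps28. In 7 of the 30 called genes the genotypes overlapped, among them Mrps9, at 44.6 ± 5.42 CPM in cKO and 63.5 ± 11.4 CPM in control ventricles. Closest inside the threshold were Mrpl32 (edgeR adjusted p = 0.045), Mrpl15 (0.0432) and Mrpl28 (0.0429). Closest outside it were Mrps31 (0.0571), Mrpl12 and Mrpl48 (0.0809). Mrpl48 was 1 of 4 members without a call whose cKO libraries were all below the controls, at 38.3 to 43.8 CPM in cKO and 45 to 60.2 CPM in control libraries. The other 3 were Mrps26, Mrpl52 and Mrpl24, named after their values were seen.

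Among members linked to cardiomyopathy in people, Mrpl44 and Mrps22 were lower, and Mrpl3 and Mrps14 were not called. Mrps22, a mitochondria-specific small-subunit protein, measured 16, 14.2, 16.8 and 20.6 CPM in cKO libraries and 20.5, 21.6, 24.8 and 24.5 CPM in control libraries. Only cKO replicate 4 reached above the lowest control (log2 fold change -0.43 ± 0.12 SE, edgeR adjusted p = 0.026), and the call was lost when control replicate 3 or 4 or cKO replicate 1, 2 or 3 was left out. Mrpl3, the L3 homologue, measured 98.0, 99.0, 91.3 and 103 CPM in cKO libraries and 84.0, 96.9, 106 and 92.5 CPM in control libraries. The cKO range lay inside the wider control range (log2 fold change 0.04 ± 0.08 SE, edgeR adjusted p = 0.778). Mrps14, the S14 homologue, measured 39.3, 35.8, 36.3 and 41.2 CPM in cKO libraries and 30.2, 39.6, 40.3 and 41.0 CPM in control libraries (log2 fold change 0.01 ± 0.10 SE, edgeR adjusted p = 0.945). Control replicate 1 was the lowest library for both Mrpl3 and Mrps14, and leaving it out gave log2 fold changes of -0.01 and -0.08.

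The paralogs Mrps18a, Mrps18b and Mrps18c, which descend from bacterial S18 and take different positions in the ribosome, were not called. Mrps18a, a large-subunit protein, measured 43.3, 41.6, 43.1 and 43.9 CPM in cKO libraries and 42.1, 42.6, 42.6 and 46.9 CPM in control libraries (log2 fold change -0.02, edgeR adjusted p = 0.884). Its sign turned with upper-quartile and total-count scaling. Mrps18b measured 10.6 to 12.5 CPM in cKO and 11.1 to 12.9 CPM in control libraries, and Mrps18c 10.9 to 14.1 CPM in cKO and 12.9 to 13.9 CPM in control libraries. Both had a log2 fold change of -0.11 and overlapping groups (edgeR adjusted p = 0.532 for Mrps18b and 0.534 for Mrps18c). The largest positive values among the members tested belonged to Mrps23 and Mrpl33, each with a log2 fold change of 0.20 that missed the threshold. Mrps23, a mitochondria-specific small-subunit protein, measured 122, 117, 119 and 124 CPM in cKO libraries and 83.6, 102, 112 and 122 CPM in control libraries (edgeR adjusted p = 0.209). Mrpl33, an L33 homologue, had an edgeR adjusted p of 0.189.

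Members were grouped by their known place in the ribosome. The counts in these small groups stand beside 39.0% of all members and 9.64% of all tested genes called lower. Of 6 core proteins of the large subunit near the peptidyl transferase centre, the tunnel and the subunit interface, 4 were lower (Mrpl2, Mrpl4, Mrpl15 and Mrpl16), with a median log2 fold change of -0.38. Of 8 proteins around the exit of the peptide tunnel, 4 were lower (Mrpl39, Mrpl44, Mrpl45 and Mrpl47), with a median of -0.31. In the small subunit, 2 of 6 proteins of the decoding region and the mRNA channel were lower (Mrps9 and Mrps24), with a median of -0.28. In the central protuberance 2 of 7 were lower, Mrpl38 and the peptidyl-tRNA hydrolase Mrpl58, with a median of -0.24. In the stalk that recruits translation factors 0 of 4 tested proteins were called by edgeR, with a median of -0.22. At an unadjusted p under 0.05, 2 of them were lower, DESeq2 called 1 (Mrpl12, adjusted p = 0.0384) and limma-voom 0. Proteins listed as homologues of bacterial ones were lower in 10 of 29 cases in the large subunit and 6 of 16 in the small one, with medians of -0.23 and -0.21. Proteins listed as mitochondria-specific were lower in 10 of 21 cases in the large subunit and 3 of 10 in the small one, with medians of -0.27 and -0.24. Mrps18a, Mrps18b and Mrpl55 were listed as mitochondria-specific, and none of them was called. Mrps18a and Mrps18b nevertheless descend from bacterial S18, so this split is approximate. Differences between these groups were not tested.

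Summed over the 77 members, the level was 2763, 2790, 2727 and 3037 CPM in cKO libraries and 3071, 3388, 3519 and 3534 CPM in control libraries. The means were 2829 ± 141 CPM in cKO and 3378 ± 215 CPM in control ventricles, a ratio of 0.837. Over all tested genes the ratio of summed CPM was 0.942 on this scale, and with total counts as the only scaling the members' ratio was 0.888. The groups did not overlap, although cKO replicate 4 and control replicate 1 came close to each other. The median over members of log2 CPM minus the control mean was -0.29, -0.26, -0.28 and -0.14 in cKO libraries 1 to 4, against -0.12, -0.01, 0.05 and 0.07 in control libraries 1 to 4. In control replicate 1, 69 of 77 members were below the control mean, and in cKO replicate 4, 52 were. The median log2 deviation over all genes stayed between 0.00 and 0.02 in all 8 libraries. TMM scaling is built to bring this about, so it is no separate check. Total level of Mrpl genes over that of Mrps genes was 2.05 to 2.08 in cKO libraries and 2.08 to 2.16 in control libraries.

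**Figure D3:**
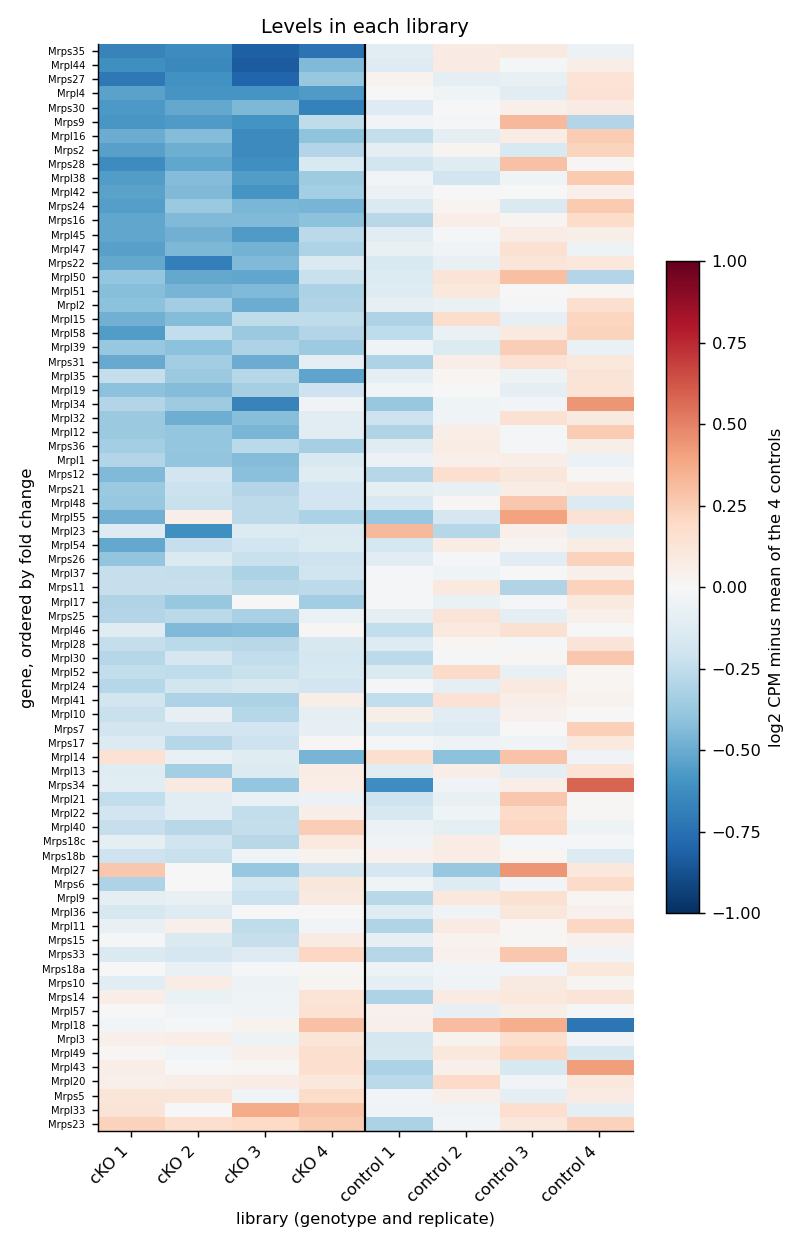
Log2 CPM minus the mean of the 4 controls for each of 77 members (rows, ordered by fold change) in each library (columns, cKO left and control right of the black line). Blue runs through the upper rows of cKO replicates 1 to 3 and is paler in cKO replicate 4, and control replicate 1 is also mostly pale blue.

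Levels of different genes were compared per kilobase of exon. Mrps21, the S21 homologue, had the highest mean level at 78.2 CPM per kb, ahead of Mrps23 at 72.4 and Mrpl18 at 51.6. Mrps21 measured 48.6, 54.4, 51.4 and 55.3 CPM in cKO libraries and 58.8, 60.0, 66.2 and 67.5 CPM in control libraries, a small fall without overlap (log2 fold change -0.27 ± 0.08 SE, edgeR adjusted p = 0.0306). Leaving out control replicate 3 or 4, or any of cKO replicates 1 to 3, ended its call. Mrpl18, a central protuberance protein, measured 67.6, 67.9, 70.6 and 84.2 CPM in cKO libraries and 71.1, 85.2, 88.6 and 41.7 CPM in control libraries. Control replicate 4 was far below the rest, and the log2 fold change of 0.02 ± 0.19 SE (edgeR adjusted p = 0.964) became -0.17 without it. The lowest levels were 0.613 CPM per kb for Mrpl23, 2.70 for Mrps34 and 2.97 for Mrps10, none of which was called. Mrpl23 measured 2.94, 2.11, 2.93 and 2.92 CPM in cKO libraries and 4.03, 2.65, 3.33 and 3.03 CPM in control libraries. Mrps10 measured 22.4 to 25.4 CPM in cKO and 22.7 to 25.7 CPM in control libraries. Mrps34 measured 4.27 to 5.93 CPM in cKO and 3.63 to 8.36 CPM in control libraries. It shares 37.0% of its exon bases with Nme3 on the same strand and 63.4% with Mapk8ip3 on the other strand. The order depended on which exons were counted, since per kilobase of coding sequence Mrpl42 (417 CPM per kb) and Mrpl51 (299) were above Mrps21 (221) and Mrps23 (213).

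The 1 member not tested was Mrpl53, a stalk protein. It had 1 count in cKO replicate 4 and 0 in the other 7 libraries. In the GENCODE annotation 88.0% of its 790 exon bases are shared with Gm42688 on the same strand (chromosome 6, 83109040 to 83109939). The part of this overlap in the low count was not tested. Gm42688 measured 0.373 to 1.16 CPM in cKO and 0.294 to 0.758 CPM in control libraries. Exons of another gene overlap 8 members on the same strand. On the opposite strand they overlap 28 members, 6 of them called.

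Other proteins of the mitoribosome carry unrelated symbols. Of 5 such genes tested, 2 were lower and 0 higher, beside 9.64% of all tested genes called in each direction. The median log2 fold change of the 5 was -0.24. Dap3, the GTP-binding protein of the small subunit, measured 71.2, 77.2, 69.3 and 75 CPM in cKO libraries and 96.5, 98.0, 101 and 93.3 CPM in control libraries (log2 fold change -0.41 ± 0.07 SE, edgeR adjusted p = 0.00172). Ptcd3, a pentatricopeptide-repeat protein of the small subunit, measured 155, 141, 140 and 137 CPM in cKO libraries and 167, 201, 204 and 185 CPM in control libraries (log2 fold change -0.40 ± 0.08 SE, edgeR adjusted p = 0.00557). Neither overlapped between genotypes. Gadd45gip1, Chchd1 and Aurkaip1 were not called.

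Counts on both mitochondrial ribosomal RNAs were lower too. The small-subunit RNA mt-Rnr1 measured 2210, 2180, 1670 and 2450 CPM in cKO libraries and 3280, 3020, 2840 and 4420 CPM in control libraries (log2 fold change -0.67 ± 0.15 SE, edgeR adjusted p = 0.00953). The large-subunit RNA mt-Rnr2 measured 5400, 5810, 4350 and 5600 CPM in cKO libraries and 7420, 7080, 6190 and 10300 CPM in control libraries (log2 fold change -0.55 ± 0.15 SE, edgeR adjusted p = 0.0275). The mt-Rnr2 call was lost when control replicate 1, cKO replicate 1 or cKO replicate 3 was left out, with an adjusted p of up to 0.0797. The libraries were made with a kit for mRNA, so these counts cover only the ribosomal RNA that such a kit retains. Over all tested genes edgeR called 9.64% in each direction. The 13 mitochondrially encoded mRNAs, which the mitoribosome translates, gave 0 calls in either direction by edgeR, DESeq2 or limma-voom. At an unadjusted p under 0.05, 0 of the 13 mRNAs passed. Their sum was 78450, 84050, 71750 and 80950 CPM in cKO libraries and 91110, 80160, 82050 and 115000 CPM in control libraries, with overlap. The median of their log2 fold changes was -0.21, or -0.08 with control replicate 4 left out.

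Genes that build and serve the mitoribosome were described from lists, beside 9.64% of all tested genes called in each direction. Of 28 assembly and ribosomal RNA modification genes 7 were lower and 2 higher, with a median log2 fold change of -0.17. The lower ones included the ribosomal RNA methyltransferases Nsun4 (-0.63, edgeR adjusted p = 0.000167) and Mrm1 (-0.74, 0.00045), and the assembly factors Fastkd2 (-0.43, 0.002) and Mettl17 (-0.47, 0.0137). The higher ones, named after their values were seen, were the endoribonuclease Ybey (0.45, 0.0159) and the pseudouridine synthase Trub2 (0.36, 0.0306). The Ybey call was lost without cKO replicate 3 (adjusted p = 0.0506). The Trub2 call held in 1 of the 8 fits, the one that left out control replicate 4, and its adjusted p was up to 0.0813. Without cKO replicate 1, 4 of the list were lower and 1 higher, and with total-count scaling 3 were lower and 2 higher. Of 17 translation factors and related proteins tested, 4 were lower and 0 higher, with a median of -0.26. They were the ribosome recycling factor Mrrf (-0.64, edgeR adjusted p = 0.000145), the mRNA-stabilising protein Lrpprc (-0.49, 0.000798), the membrane insertase Oxa1l (-0.58, 0.00097) and the elongation factor Tufm (-0.50, 0.00609). Mrrf measured 30.6, 30.7, 31.3 and 32.7 CPM in cKO libraries and 48.3, 46.2, 50.8 and 49.4 CPM in control libraries, well apart.

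Of 20 mitochondrial aminoacyl-tRNA synthetases and amidotransferase genes, 10 were lower and 0 higher, with a median log2 fold change of -0.32. Although 19 of the fold changes were negative and 1 positive, the summed level overlapped between genotypes, with a ratio of 0.987. The sum was 1909, 2153, 1084 and 1871 CPM in cKO libraries and 1954, 1587, 1692 and 1875 CPM in control libraries. Genes with high counts weigh most in such a sum. Vars2 (-0.57, edgeR adjusted p = 0.000598) and Fars2 (-0.65, 0.000719) charge the valine and phenylalanine tRNAs, Sars2 (-0.64, 0.00592) the serine tRNAs, and Qrsl1 (-0.48, 0.00398) is an amidotransferase subunit. The number lower was 7 without cKO replicate 1, 6 in males alone and 5 with total-count scaling. Of 23 genes for mitochondrial DNA maintenance, transcription and RNA processing, 10 were lower (43.5%) and 0 higher, with a median of -0.29. These included the RNA-binding protein Fastkd1 (-0.52, edgeR adjusted p = 0.000836), the RNase P subunit Hsd17b10 (-0.58, 0.00199), the pentatricopeptide-repeat protein Ptcd2 (-0.58, 0.00213) and the helicase Twnk (-0.39, 0.00234). The mitochondrial RNA polymerase Polrmt was lower (-0.42, 0.0281), but not with control replicate 1 or 4 or any of cKO replicates 1 to 3 left out (adjusted p up to 0.08), and the transcription factor Tfam was not called (-0.20, 0.26). In that list 6 genes were lower without cKO replicate 1 or 2, and 6 with total-count scaling.

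Regulators of mitochondrial gene expression gave 3 lower and 1 higher of 15, with a median log2 fold change of -0.11. Ppara, a nuclear receptor for fatty acid oxidation genes, measured 48.1, 40.9, 47.6 and 44.7 CPM in cKO libraries and 73.6, 63.2, 80.9 and 69.5 CPM in control libraries (log2 fold change -0.66 ± 0.09 SE, edgeR adjusted p = 0.000509). The coactivator Ppargc1a measured 179, 167, 157 and 136 CPM in cKO libraries and 189, 202, 243 and 189 CPM in control libraries (log2 fold change -0.37 ± 0.11 SE, edgeR adjusted p = 0.0325). Its relative Ppargc1b was also lower (log2 fold change -0.32, edgeR adjusted p = 0.0303). Leaving out control replicate 2 or 3, or any of cKO replicates 2 to 4, ended the Ppargc1a call (adjusted p up to 0.0859). For Ppargc1b this happened with any of control replicates 1 to 3 and with cKO replicate 3 or 4 (adjusted p up to 0.0773). The transcription factors Nrf1 (-0.20, edgeR adjusted p = 0.236) and Gabpa (-0.04, 0.853), which bind many promoters of nuclear genes for mitochondrial proteins, were not called, and Gabpa turned positive under total-count scaling. Myc, a growth-promoting transcription factor, was higher (log2 fold change 1.12, edgeR adjusted p = 0.0015). Of 19 mitochondrial stress genes 3 were lower (15.8%) and 2 higher, beside the same 9.64% in each direction. The lower ones included the protease subunit Clpp (-0.61, edgeR adjusted p = 0.000709) and the folate enzyme Shmt2 (-0.39, 0.00516). The 2 that were higher, Gdf15 (2.46, edgeR adjusted p = 0.0326) and Atf4 (0.45, 0.0361), both lost their call in some fits with 1 library left out, and 0 were higher when that library was control replicate 1, cKO replicate 1 or cKO replicate 3.

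Genes for the ribosome of the cytosol served as a comparison. Of 81 tested, 1 was lower and 80 were not called, beside 9.64% of all tested genes called in each direction. The median log2 fold change of the 81 was -0.01. Their sum was 5361, 5758, 6099 and 5578 CPM in cKO libraries and 5369, 5831, 6170 and 6155 CPM in control libraries, with near-complete overlap and a ratio of 0.969. Many of these genes have near-identical pseudogene copies, so their counts are uncertain. The difference between the cytosolic and mitochondrial sets was not tested.

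Among markers of the cell types of the ventricle, the shares called stand beside the 9.64% of all tested genes called in each direction. Of 22 cardiomyocyte markers 5 were lower and 1 higher, with a median log2 fold change of -0.20, and their summed level was 64940 to 72840 CPM in cKO and 69530 to 89940 CPM in control libraries, a ratio of 0.847. The ratio for the mitochondrial ribosomal proteins was 0.837. The creatine kinase gene Ckm was lower (-0.81, edgeR adjusted p = 0.00045), as were the calcium release channel Ryr2 (-0.68, 0.00114) and troponin I, Tnni3 (-0.47, 0.00288), and the slow myosin Myh7 was higher (2.33, 0.00225). Of 15 fibroblast markers 14 were higher and 0 lower, with a median of 1.09 and a summed level of 5993 to 7002 CPM in cKO and 2869 to 3858 CPM in control libraries, a ratio of 1.94. Mfap4, Mfap5, Postn and Dpt, genes of the extracellular matrix, had log2 fold changes of 2.03, 1.58, 2.05 and 0.86. Macrophage markers were higher in 4 of 14 cases, endothelial markers in 2 of 15 with 2 lower (median -0.04), and smooth muscle and pericyte markers in 1 of 11 with 2 lower (median 0.01). No listed cardiomyocyte, fibroblast, endothelial, smooth muscle or macrophage marker that was tested was at 0 counts in any library. In whole ventricles, fewer heart muscle cells and less RNA per cell cannot be told apart. The part of the marker changes in the mitochondrial ribosomal protein result was not tested.

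**Figure D4:**
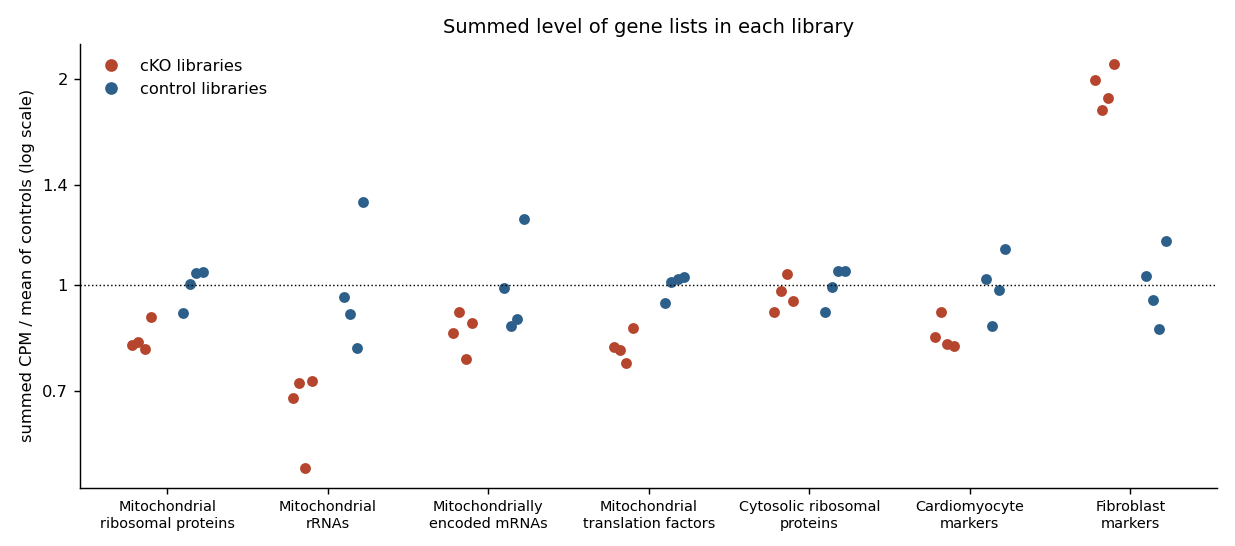
Summed CPM of 7 gene lists in each library, divided by the mean of the 4 controls (log axis), with cKO libraries in red to the left of control libraries in blue. The cKO libraries lie below the controls for the mitochondrial ribosomal proteins, whose mean ratio is 0.837, overlap them for cytosolic ribosomal proteins (0.969) and lie above them for fibroblast markers (1.94).

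Longer members tended to have larger falls, a relation looked for after the values were seen. Among the 25 members with the longest coding sequences (762 to 1326 bases), 17 were lower, with a median log2 fold change of -0.37. Among the 26 of middle length (501 to 756 bases) 7 were lower, with a median of -0.24. Among the 26 shortest (261 to 498 bases) 6 were lower, with a median of -0.17. Over all tested genes 9.64% were called lower, and the share within each length range was not taken. Across the 77 members coding length and log2 fold change had a Pearson r of -0.38 and a Spearman rho of -0.35, and total exon length an r of -0.09 and a rho of -0.13. Control level moved with length, with median control CPM of 45.2 in the long, 32.0 in the middle and 28.0 in the short set, and its part in the relation was not tested. The r between control CPM and log2 fold change was -0.21. Across 13542 protein-coding genes the r for coding length was 0.01. These are correlations across genes of the same libraries and carry no test.

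**Figure D5:**
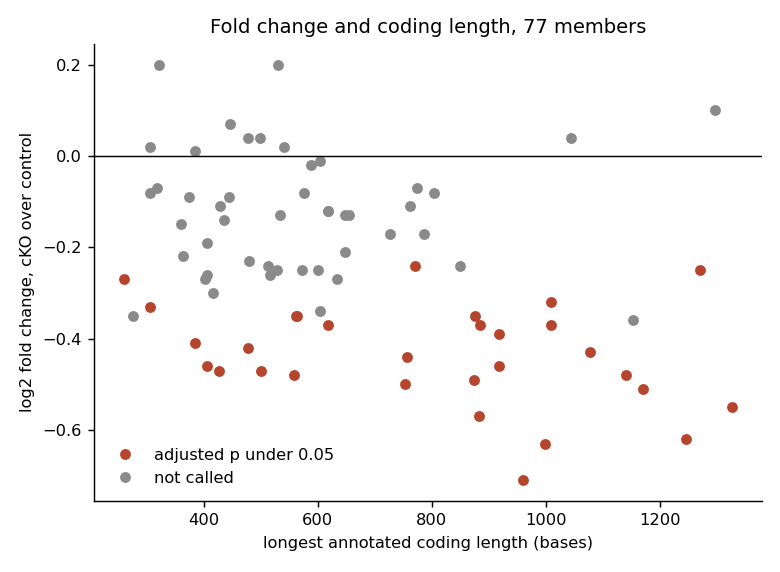
Longest annotated coding length (x axis, bases) against log2 fold change of cKO over control (y axis) for the 77 members tested, with called genes in red. Points slope down to the right (r of -0.38), and 17 of the 25 members of 762 bases or more are red.

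Promoters were read because 30 of the 77 members tested were lower and the members lie on 17 chromosomes. RefSeq promoters (GRCm38.p6, from 250 bases before to 50 bases after the annotated start) were found for 69 members, with 75 promoters in all. They were searched on both strands for an NRF1 site (GCATGCGC), an ETS or GABP site (CCGGAAG), a YY1 site (AAGATGGCG) and an E-box (CACGTG), and no occurrences of different motifs overlapped. The ETS or GABP letters were in 34.7% of members' promoters, against 8.86% of all 32851 promoters and 15.7% of promoters of tested genes. The NRF1 letters were in 10.7%, against 2.71% of all and 4.66% of tested genes, and the YY1 letters in 10.7%, against 1.4% and 2.64%. The E-box was in 9.33%, against 7.15% and 9.57%. Mrpl2 entered this share with several overlapping promoters. Counted by gene, the E-box was in 7.25% of members, against 8.09% of all genes and 11.4% of tested genes. Members called lower had 27 promoters from 24 genes, and members tested but not called had 47 from 44 genes. The ETS or GABP letters were in 22.2% of the former against 40.4% of the latter, and the YY1 letters in 18.5% against 6.38%. These shares were not tested and the letters are no evidence of binding. The promoters of the 3 named, called members with the smallest adjusted p that held a motif are printed to show where such letters stand, with the motif in capitals. In Mrpl42 (chr10:95501900-95502199, minus strand) the YY1 letters begin 28 bases after the start. In Mrps27 (chr13:99344536-99344835, plus strand) the ETS letters stand in reverse complement, beginning at -48, and the YY1 letters begin 15 bases after the start. In Mrpl51 (chr6:125191950-125192249, plus strand) the ETS letters begin at -90.
Mrpl42: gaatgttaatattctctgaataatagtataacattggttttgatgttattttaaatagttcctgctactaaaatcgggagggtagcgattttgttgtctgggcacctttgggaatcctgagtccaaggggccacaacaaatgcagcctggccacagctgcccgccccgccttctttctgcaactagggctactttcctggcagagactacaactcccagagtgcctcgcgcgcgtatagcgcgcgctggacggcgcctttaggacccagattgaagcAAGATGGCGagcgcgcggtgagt
Mrps27: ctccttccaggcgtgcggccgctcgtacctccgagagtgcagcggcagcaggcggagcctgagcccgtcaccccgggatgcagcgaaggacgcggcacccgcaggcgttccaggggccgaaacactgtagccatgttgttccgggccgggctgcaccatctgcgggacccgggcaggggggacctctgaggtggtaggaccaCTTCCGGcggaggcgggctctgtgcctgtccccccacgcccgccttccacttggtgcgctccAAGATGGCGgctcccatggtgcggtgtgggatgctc
Mrpl51: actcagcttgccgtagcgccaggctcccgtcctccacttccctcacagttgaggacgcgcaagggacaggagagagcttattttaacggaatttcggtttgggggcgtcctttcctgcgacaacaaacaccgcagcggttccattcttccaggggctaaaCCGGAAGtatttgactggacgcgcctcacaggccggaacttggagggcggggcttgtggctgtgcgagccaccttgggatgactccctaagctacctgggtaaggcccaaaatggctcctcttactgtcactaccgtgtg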

How the data were processed

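Polyadenylated RNA of 8 ventricle libraries was sequenced from stranded mRNA libraries, per the labels' protocols. The authors deposited whole-number counts per gene. Tools listed in the submitters' processing notes are edgeR 3.30.3, featureCounts 1.6.0, HISAT2 2.0.4 and FastQC 0.11.4, with the builds GRCm38 and mm10. For the annotation release, strand setting and multiply aligned reads, values were not given in the sources. A total of 24 rows without a usable symbol (0.115 to 0.132% of counts) were left out. Genotypes were compared over all genes with edgeR 4.0.16 in R 4.3.3 (quasi-likelihood test, TMM, filterByExpr, Benjamini-Hochberg, two-sided, adjusted p under 0.05). DESeq2 1.42.0, limma-voom 3.58.1, other scalings and filters, sex as a term and leaving out libraries were alternatives. Standard errors are the log2 fold change over the square root of F. Whether tissue was pooled is not labelled, and p-values measure only the spread between libraries. Replicates differed beyond sampling noise (chi-square per degree of freedom 7.79 to 34.8). The pipeline was run on simulated data with planted changes, each larger than the median change of the members. Detection of changes of that median size was therefore not examined.

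Members and gene lists were chosen with earlier results of these data known. Named members were the 16 lower members with the smallest adjusted p, the 3 highest and 3 lowest per kilobase, and the Mrps18 paralogs. Also named were members linked to cardiomyopathy, Mrps36 and Mrpl12 for roles outside the ribosome, and the 3 nearest outside the threshold. From other lists up to 4 called genes were named, and Ppargc1a, Tfam, Nrf1, Gabpa and Polrmt. Places in the ribosome were assigned from general knowledge, and positions and lengths from GENCODE M21 (GRCm38), which held 98.0% of symbols.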

Additional observations from a re-analysis of the deposited data

Results flagged for a closer look

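A library stood far from the other 3 of its genotype for 5 of 66 sets of 4 CPM values looked at, and chance gives about 1 in 20. Mrpl23 measured 2.11 CPM in cKO replicate 2, against 2.92 to 2.94 CPM in the other cKO libraries. Mrpl47 measured 33.3 CPM in control replicate 3, against 28.5 to 29.3 CPM in the other controls. Mrps18a measured 46.9 CPM in control replicate 4, against 42.1 to 42.6 CPM in the other controls. Mrps18c measured 13.9 CPM in control replicate 2, against 12.9 to 13.0 CPM in the other controls. Mrps14 measured 30.2 CPM in control replicate 1, against 39.6 to 41.0 CPM in the other controls. Of these genes Mrpl47 was called.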

How the results depend on the processing

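No paired analysis was possible because the labels do not tie cKO to control libraries and the column names carry no shared replicate numbers. Across 20 alternatives the members called higher stayed at 0, and the number lower was 16 to 34. At an adjusted p under 0.01, 16 members (9 Mrpl and 7 Mrps genes) were lower, and 808 genes were higher and 817 lower in the whole table. With total counts only, 16 members (10 Mrpl and 6 Mrps genes) and 1021 genes overall were lower, and the median log2 fold change was -0.16 for all members, Mrpl genes and Mrps genes alike. In males only 7 Mrps genes were lower. With each library left out, 20 to 34 members, 12 to 21 Mrpl genes and 8 to 13 Mrps genes were lower, beside 1093 to 1418 genes in the whole table. In these fits 27 to 41 members had no overlap, 41 without cKO replicate 4. Fewer samples were tested in these fits, so groups separate more readily, and the share of all genes without overlap was not taken for them. Signs turned for uncalled genes with log2 fold changes near 0, and the cause was not tested. With each library left out, Mrpl18 gave -0.17 to 0.14, Mrps34 -0.31 to 0.09, Mrps10 -0.05 to 0.02, Mrps18a -0.04 to 0.01, Mrpl3 -0.01 to 0.10, Mrps14 -0.08 to 0.05 and Gabpa -0.09 to 0.06. With upper-quartile factors Mrps10 gave 0.01 and Mrps18a 0.00. With total counts Mrps10 and Mrps18a gave 0.07 and Gabpa 0.05, and in males Mrps10 gave 0.03 and Gabpa 0.02. The members with the fewest counts were Mrpl53, which was not tested, and Mrpl23.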
